A study of Homo sapiens with 6 samples.

Results

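The stress granule core genes described here are G3BP1, G3BP2, CAPRIN1, USP10, UBAP2L, TIA1, TIAL1, ATXN2, ATXN2L and PABPC1. They were taken by symbol, as the G3BP nodes of stress granules and their direct partners. All 10 were present among the 35322 gene symbols of the count table, and all 10 passed the filter on low counts that left 16510 genes to test. RNA was sequenced from 22Rv1, an established human prostate carcinoma cell line, in 6 libraries. The labels describe 2 libraries of control cells with the genotype WT, 2 of ZM11-kd1 and 2 of ZM11-kd2, the latter both labelled ZMYND11 knockdown. ZMYND11 is a chromatin reader protein, and the study asked how its loss bears on stress granules formed with HNRNPA1. All groups were labelled as untreated, so that the RNA came from cells in ordinary culture without an agent that induces stress granules, and granules themselves were not measured here. The study's methods describe lentiviral shRNAs in the pLKO.1 vector, and a figure legend of the study names control shRNAs in stably expressing cells, whereas the labels give the control cells as WT. The sources conflict on whether the control cells carried a vector. Whether each knockdown was 1 clone or a pool is not given in the sources used here. Nothing says that libraries of a group came from separate cultures, and the p-values below then measure only the spread between these libraries, which may be technical.

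Stress granules are cytoplasmic assemblies of RNA and protein that form when translation initiation stalls. G3BP1 and G3BP2 are RNA-binding proteins that act as central nodes of the granule network, where CAPRIN1 and UBAP2L favour assembly and USP10 competes with CAPRIN1 for the same surface of G3BP and opposes assembly. TIA1 and TIAL1 bind U-rich RNA and carry prion-like domains, ATXN2 and ATXN2L bind RNA and poly(A)-binding protein, and PABPC1 covers the poly(A) tails of the mRNAs that granules collect.

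ZMYND11 was low in every knockdown library. Its counts were 4283 and 4179 in the control libraries, 941 and 773 in ZM11-kd1, and 770 and 779 in ZM11-kd2, so that the log2 fold change was -2.35 ± 0.07 (SE) in ZM11-kd1 and -2.64 ± 0.07 in ZM11-kd2. The target sites of the shRNAs against ZMYND11 are printed because they define the knockdowns, with capitals for the 7 bases that pair with bases 2 to 8 of the guide strand. Both sites lie in the coding sequence of ZMYND11 on the plus strand of chromosome 10 (hg38).
shRNA-1, exon 9, chr10:240944-240964: cctgacaactggtTCTGTTAt
shRNA-2, exon 13, chr10:248413-248433: cgtgtcaactcagACAAAGAa
Which of these each knockdown carried is not given in the sources used here. The capital letters of shRNA-1 occur in 15.8% of the 14340 3′ UTRs of tested genes, and those of shRNA-2 in 16.5%. Among the core genes, the 3′ UTR of G3BP1 (8694 bases) held 1 match to each, that of TIA1 held 1 to shRNA-2, that of TIAL1 held 1 to shRNA-1, and the other 7 held neither. A match describes the letters and is not a site of action.

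The libraries held 26844128 to 38193748 counts. All 11 prostate epithelial markers examined were above 20 counts in at least 1 library, while all 4 endothelial markers were at or under 20 counts in every library. Of 7 fibroblast markers 2, and of 5 blood cell markers 3, were at or under 20 counts in every library. The summed level of 6 markers of cycling cells was 1010 to 1016 CPM (counts per 1000000 counts) of library total in control cells, 79.2 to 87.0 in ZM11-kd1 and 130.2 to 141 in ZM11-kd2, and the summed level of 7 fibroblast markers was 37.2 to 41.0, 76.3 to 77.0 and 44.1 to 45.4 in the same order. The summed level of the 11 prostate markers was 3704 to 3708, 3702 to 3728 and 4522 to 4627 in the same order, and that of 5 blood cell markers 2.57 to 2.64, 1.36 to 1.39 and 0.50 to 0.78. The ranges of the cycling, fibroblast and blood markers did not overlap between groups, while the prostate range of ZM11-kd1 overlapped that of control and the one of ZM11-kd2 lay above both. Their part in the results was not tested. In bulk RNA, fewer cells of a kind and less RNA per cell cannot be told apart.

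The G3BP nodes split the knockdowns. G3BP1 (chromosome 5, 151771045 to 151812911, plus strand, hg38) had 252.2 and 250.3 normalized CPM in the control libraries, 194.9 and 196.6 in ZM11-kd1, and 282.9 and 280.4 in ZM11-kd2. Normalized CPM are CPM after scaling by edgeR's trimmed mean of M values (TMM). Both ZM11-kd1 libraries were thus below both controls, and both ZM11-kd2 libraries above them. The log2 fold change of G3BP1 was -0.36 ± 0.05 (SE, n = 2 libraries per group, edgeR adjusted p = 8.96e-06) in ZM11-kd1 and 0.16 ± 0.05 (adjusted p = 0.00701) in ZM11-kd2. The rise in ZM11-kd2 was not called when either control library was left out (log2 fold change 0.17 without replicate 1, adjusted p = 0.0621, and 0.16 without replicate 2, adjusted p = 0.0754).

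G3BP2 (chromosome 4, 75641849 to 75724589, minus strand), the paralog of G3BP1, stood at almost the same normalized level as G3BP1 in control cells, with 250.7 and 253.5 CPM. It had 209.2 and 198.5 in ZM11-kd1 and 438.7 and 456.8 in ZM11-kd2. G3BP2 fell by 0.31 ± 0.05 on the log2 scale in ZM11-kd1 (edgeR adjusted p = 8.46e-05) and rose by 0.83 ± 0.05 in ZM11-kd2 (adjusted p = 2.68e-09), which is 1.78-fold. The direction of both G3BP genes in ZM11-kd1 depended on the scaling. After a correction for the trends of counts with GC content and gene length, called the GC-length correction below, their log2 fold changes were 0.45 and 0.39, above 0. In ZM11-kd2, G3BP2 was higher under each of the 5 scalings examined, at 0.66 to 1.12. G3BP1 stood there at -0.01 with library totals alone and at 0.55 (edgeR adjusted p = 3.00e-08) with the GC-length correction. As TPM over merged exons, described further on, G3BP1 was lower in ZM11-kd2 than in control cells (63.0 against 70.4) and G3BP2 higher (145 against 103).

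The promoters of these paralogs are shown because their transcripts diverged in ZM11-kd2. The sequences are the 250 bases before the start site in RefSeq (GRCh38.p14), with capitals for CCAAT boxes (CCAAT or ATTGG on the printed strand) and GC boxes (GGGCGG or CCGCCC).
G3BP1, plus strand, chr5:151771704-151771953: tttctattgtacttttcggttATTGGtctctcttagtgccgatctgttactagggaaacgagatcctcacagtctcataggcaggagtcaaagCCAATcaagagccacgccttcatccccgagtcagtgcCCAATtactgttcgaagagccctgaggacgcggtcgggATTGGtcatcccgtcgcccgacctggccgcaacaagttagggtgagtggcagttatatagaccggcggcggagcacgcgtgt
G3BP2, minus strand, chr4:75673596-75673845: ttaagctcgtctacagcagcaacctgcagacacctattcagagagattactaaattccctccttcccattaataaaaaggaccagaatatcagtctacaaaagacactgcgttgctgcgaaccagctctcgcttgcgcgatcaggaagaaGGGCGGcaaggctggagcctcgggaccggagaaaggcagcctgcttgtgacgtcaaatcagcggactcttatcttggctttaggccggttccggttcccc
The G3BP1 promoter held 4 CCAAT boxes and no GC box, and the G3BP2 window held no CCAAT box and 1 GC box. G3BP2 has 5 start sites in the table, and the one used lies 184 bases from the start of its canonical transcript. For comparison, 32% of 35116 promoters of this length held a CCAAT box and 42.6% a GC box. Among the 6 other core genes examined, CAPRIN1, USP10 and UBAP2L held 2 GC boxes each, TIA1 held 1, and TIAL1 and ATXN2L held none. No CCAAT box was found in these 6. The promoter of PABPC1 was not examined, and ATXN2 had none in the table. Letters in a window say nothing on binding of a factor, which was not measured.

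**Figure D1:**
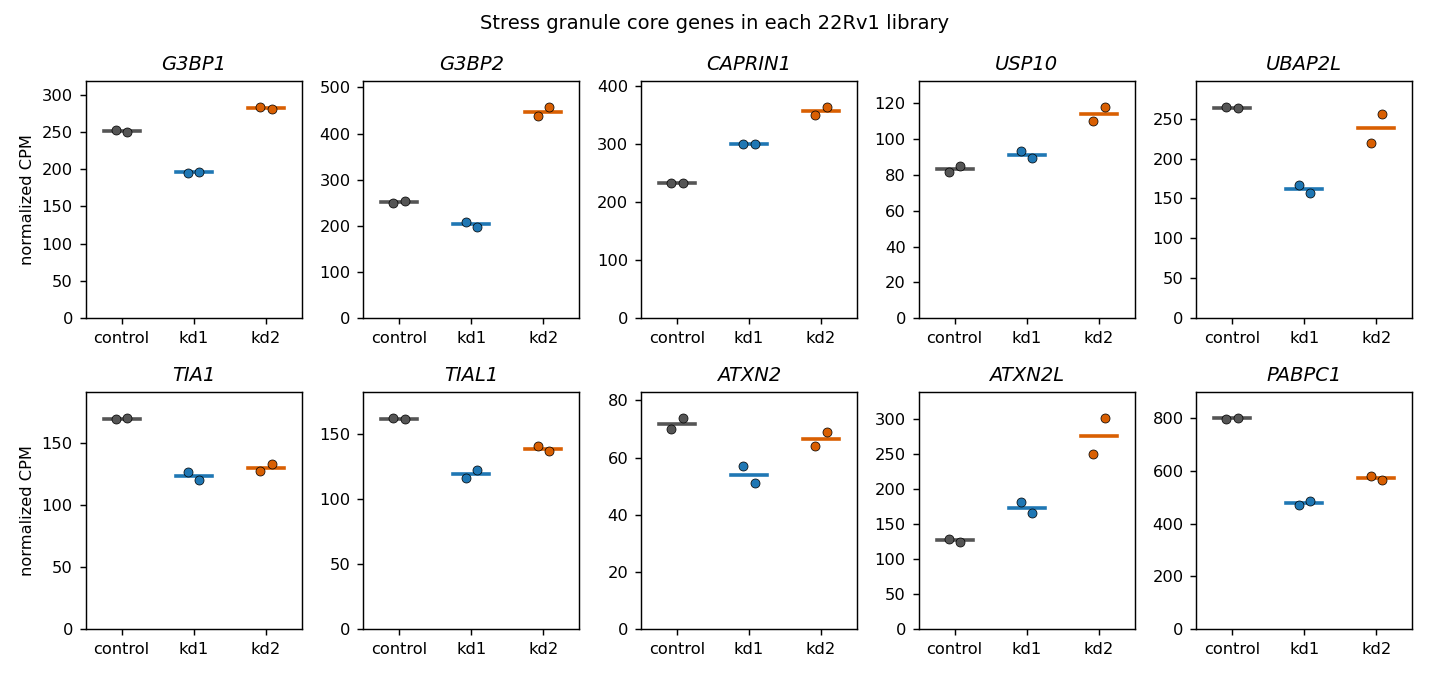
Normalized CPM (TMM) of the 10 stress granule core genes in each library, with 1 point per library, a horizontal line at the mean of the 2 libraries of a group, and a y axis that starts at 0 and differs between panels. Both ZM11-kd2 libraries lie above both ZM11-kd1 libraries for every gene on this scale, by a narrow margin for TIA1 (127.1 against 126.9 CPM), while the order of CAPRIN1, TIA1 and TIAL1 between the knockdowns turns after the GC-length correction and that of G3BP1 and PABPC1 under 1 of the 2 length measures.

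CAPRIN1 (chromosome 11, 34051731 to 34102610, plus strand) was higher in both knockdowns after TMM scaling. It had 232.5 and 233.4 CPM in control cells, 300.3 and 299.7 in ZM11-kd1, and 350.7 and 363.4 in ZM11-kd2, with no overlap between groups. The log2 fold change was 0.36 ± 0.05 (edgeR adjusted p = 8.80e-06) in ZM11-kd1 and 0.62 ± 0.05 (adjusted p = 4.05e-08) in ZM11-kd2. With library totals alone the difference in ZM11-kd1 was 0.01 and was not called, against a median of all genes of -0.38 on that scaling. With the GC-length correction it was 0.89 (edgeR adjusted p = 1.41e-11). Per length, as the TPM described further on, CAPRIN1 was lower in ZM11-kd1 than in control cells, at 117 against 144 over merged exons. This measure was lower there for every core gene, with USP10 at 63.6 against 92.4, so it does not single out CAPRIN1.

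USP10 (chromosome 16, 84699986 to 84779922, plus strand), the deubiquitinase that competes with CAPRIN1, was higher in ZM11-kd2, while its call in ZM11-kd1 depended on the scaling. It had 81.8 and 85.2 CPM in control cells, 93.3 and 89.3 in ZM11-kd1, and 110.0 and 117.7 in ZM11-kd2. The log2 fold change was 0.45 ± 0.06 (edgeR adjusted p = 7.49e-06) in ZM11-kd2. In ZM11-kd1 it was 0.13 ± 0.06 (adjusted p = 0.0584), which was not called. In ZM11-kd1 it was called higher with DESeq2 size factors (0.13, adjusted p = 0.0473) and with only the groups compared in the fit (0.13, adjusted p = 0.0120). It was also called higher there with the GC-length correction (0.31, adjusted p = 6.30e-05), and with canonical transcript length in that correction (0.35, adjusted p = 4.51e-06). With library totals alone it was called lower there (-0.23, adjusted p = 0.00420).

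UBAP2L (chromosome 1, 154220179 to 154271510, plus strand), which promotes G3BP granule assembly, was lower in ZM11-kd1. The control libraries had 264.0 and 262.7 CPM, the ZM11-kd1 libraries 166.7 and 156.8, and the ZM11-kd2 libraries 219.0 and 256.2. UBAP2L fell by 0.70 ± 0.07 on the log2 scale in ZM11-kd1 (edgeR adjusted p = 2.22e-07), and this direction held under all 5 scalings, at -1.06 to -0.41. The ZM11-kd2 libraries lay further apart than those of the other groups. The difference there was -0.15 ± 0.07 (adjusted p = 0.0589), with -0.04 when the first ZM11-kd2 library was left out and -0.26 (adjusted p = 1.07e-05) when the second was. It was called lower with library totals alone (-0.32, adjusted p = 0.000920), without a filter (-0.14, adjusted p = 0.0252) and with at least 10 counts in every library (-0.19, adjusted p = 0.0221), and was -0.02 with the GC-length correction.

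TIA1 and TIAL1 fell together. TIA1 (chromosome 2, 70209444 to 70248660, minus strand) had 169.1 and 170.0 CPM in control cells, 126.9 and 120.2 in ZM11-kd1, and 127.1 and 133.1 in ZM11-kd2, and TIAL1 (chromosome 10, 119571802 to 119597029, minus strand) had 162.1 and 161.1, then 115.9 and 122.1, then 140.6 and 136.7. All 4 knockdown libraries were below both controls for each gene. In ZM11-kd2 the log2 fold changes were -0.38 ± 0.05 (edgeR adjusted p = 1.62e-05) for TIA1 and -0.22 ± 0.05 (adjusted p = 0.00170) for TIAL1, and both stayed below 0 and called under the 5 scalings. In ZM11-kd1 they were -0.46 ± 0.05 (adjusted p = 2.17e-06) and -0.44 ± 0.05 (adjusted p = 2.53e-06), but after the GC-length correction they were 0.02 and 0.07 and not called. C2orf42, on the same strand as TIA1, shares 211 exon bases with it and had counts of at most 14.5% of those of TIA1.

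The ataxin-2 paralogs parted. ATXN2 (chromosome 12, 111443485 to 111599676, minus strand) had 70.0 and 73.8 CPM in control cells, 57.1 and 50.9 in ZM11-kd1, and 63.9 and 68.8 in ZM11-kd2. ATXN2L (chromosome 16, 28822999 to 28837237, plus strand) had 128.8 and 124.7, then 180.9 and 166.1, then 250.6 and 301.6. ATXN2L thus rose where ATXN2 did not, and the ZM11-kd2 libraries of ATXN2L were the highest of the 6. ATXN2L rose by 0.45 ± 0.08 on the log2 scale in ZM11-kd1 (edgeR adjusted p = 7.97e-05) and by 1.12 ± 0.08 in ZM11-kd2 (adjusted p = 6.91e-09), which is 2.18-fold and, under TMM, the largest change against control among the core genes. ATXN2 fell by 0.41 ± 0.07 in ZM11-kd1 (adjusted p = 9.14e-05) and differed by -0.12 ± 0.07 in ZM11-kd2 (adjusted p = 0.147). The latter was -0.07 without the first ZM11-kd2 library (adjusted p = 0.391), -0.08 without the second control library (adjusted p = 0.504), and called lower without the second ZM11-kd2 library (-0.16, adjusted p = 0.0310) and with library totals alone (-0.29, adjusted p = 0.00294). The change of ATXN2 turned after the GC-length correction, to 0.24 and 0.30, whereas ATXN2L stayed above 0 under each of the 5 scalings, with 0.10 (not called) in ZM11-kd1 for library totals alone. As TPM over merged exons, ATXN2L was lower in ZM11-kd1 than in control cells, at 93.7 against 109, as every core gene was on that measure. Antisense lncRNA genes share 560 and 292 exon bases with ATXN2L, and without a stated use of strand their reads cannot be told apart from those of ATXN2L.

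PABPC1, the cytoplasmic poly(A)-binding protein, had the highest level of the core genes and was lower in both knockdowns. It had 798.7 and 800.6 CPM in control cells, 471.1 and 484.1 in ZM11-kd1, and 581.8 and 565.6 in ZM11-kd2, and the 3 groups did not overlap. PABPC1 fell by 0.74 ± 0.05 on the log2 scale in ZM11-kd1 (edgeR adjusted p = 3.04e-09) and by 0.48 ± 0.05 in ZM11-kd2 (adjusted p = 5.40e-07). It stayed below 0 and called in both under the 5 scalings, at -1.10 to -0.21 in ZM11-kd1 and -0.65 to -0.27 in ZM11-kd2.

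**Figure D2:**
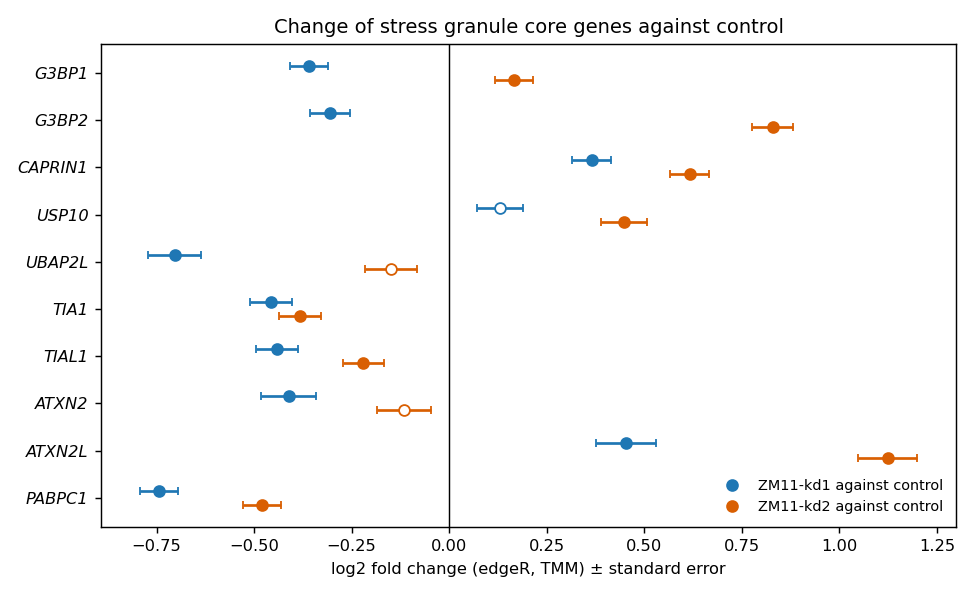
Log2 fold change against control (edgeR, TMM) of each core gene in ZM11-kd1 (blue) and ZM11-kd2 (orange), with bars of 1 standard error and open circles where the adjusted p was not under 0.05. G3BP1 and G3BP2 lie on opposite sides of 0 in the knockdowns, at -0.36 and -0.31 against 0.16 and 0.83, but in ZM11-kd1 both turned to above 0 after the GC-length correction, and G3BP1 in ZM11-kd2 turned to -0.01 with library totals alone.

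Counted over the 10 genes, 9 were called in ZM11-kd1, where 78.0% of all tested genes were called. Of these, 2 were higher, CAPRIN1 and ATXN2L, against 38.2% of all genes, and 7 were lower, against 39.8%. In ZM11-kd2, 8 were called against 73.4% of all genes, with 5 higher (36.5% of all genes) and 3 lower (36.9% of all genes). The number of core genes called was thus near the share of all genes called in either knockdown. The libraries of knockdown and control did not overlap for any of the 10 genes in ZM11-kd1 or in ZM11-kd2, as for 89.7% and 86.3% of all tested genes. The median log2 fold change of the core genes was -0.39 in ZM11-kd1 and 0.02 in ZM11-kd2, beside -0.03 for all genes in both.

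The split of directions was set in part by the scaling. With library totals alone, which moved the median of all genes to -0.38 in ZM11-kd1 and -0.20 in ZM11-kd2, 0 core genes were called higher and 8 lower in ZM11-kd1, and 4 higher and 5 lower in ZM11-kd2. Of all tested genes, 27.8% were higher and 51.0% lower in ZM11-kd1 on that scaling, and 30.1% and 43.7% in ZM11-kd2. With the GC-length correction, 6 were higher and 2 lower in ZM11-kd1 (38.8% and 38.0% of all genes), and 6 higher and 3 lower in ZM11-kd2 (38.2% and 35.7% of all genes). Over 15950 genes, the log2 fold change in ZM11-kd1 had a Spearman correlation of 0.21 with GC content and -0.29 with gene length, and in ZM11-kd2 of -0.02 and -0.13. Genes are not independent replicates, and these values describe the libraries. UBAP2L and PABPC1 in ZM11-kd1, and G3BP2, CAPRIN1, USP10, ATXN2L, TIA1, TIAL1 and PABPC1 in ZM11-kd2, kept direction and call under all 5 scalings.

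**Figure D3:**
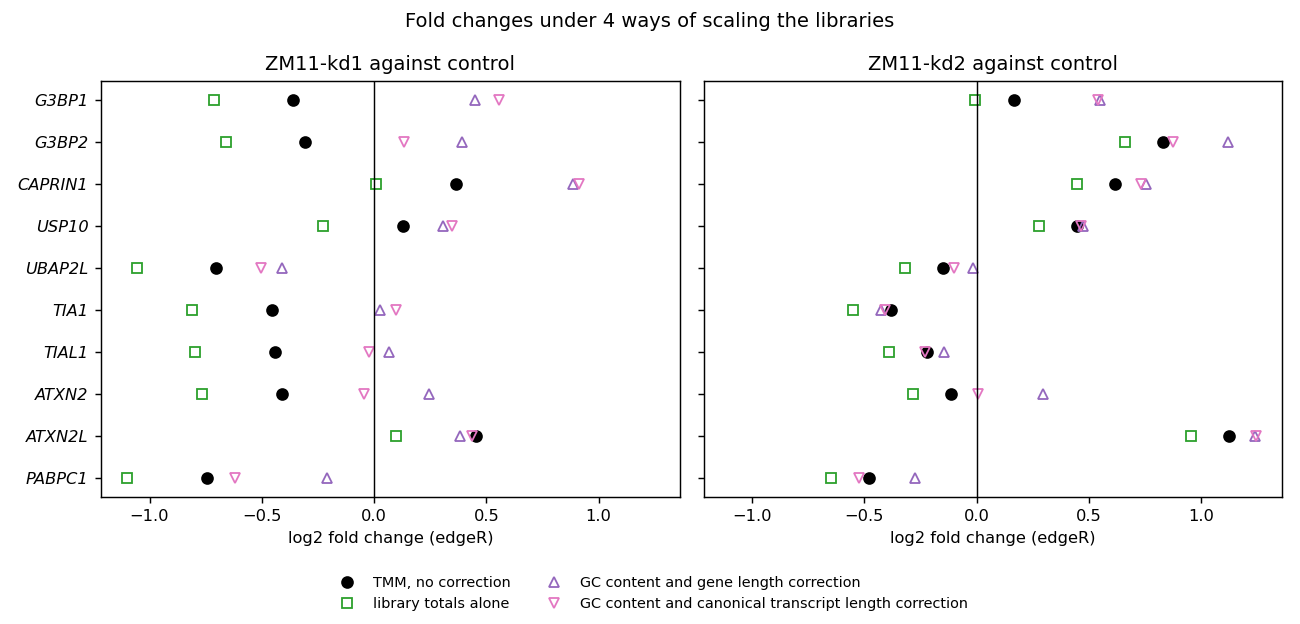
Log2 fold change of each core gene against control under TMM without correction (filled circles), library totals alone (squares), and corrections for GC content with gene length (upward triangles) or with the length of the canonical transcript (downward triangles). In ZM11-kd1, 6 of 10 genes lie on both sides of 0 (G3BP1, G3BP2, USP10, TIA1, TIAL1 and ATXN2), while in ZM11-kd2 only G3BP1 and ATXN2 do among the scalings plotted.

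Between the knockdowns 9 of the 10 genes were called, all higher in ZM11-kd2, where 68.8% of all genes were called, 34.9% higher and 33.8% lower. The libraries of the knockdowns did not overlap for any of the 10, against 83.1% of all genes. Under TMM, G3BP2 differed most, at 1.13 ± 0.05 on the log2 scale (edgeR adjusted p = 1.83e-10). Behind it came ATXN2L at 0.67 ± 0.08 (adjusted p = 1.86e-06), UBAP2L at 0.55 ± 0.07 (adjusted p = 4.39e-06) and G3BP1 at 0.52 ± 0.05 (adjusted p = 2.50e-07). TIA1 differed by 0.07 ± 0.05 (adjusted p = 0.240). With the GC-length correction the split became 4 higher and 3 lower, against 33.9% and 33.5% of all genes, with CAPRIN1 (-0.13), TIA1 (-0.45) and TIAL1 (-0.21) called lower in ZM11-kd2. G3BP2, USP10, UBAP2L and ATXN2L were higher and called under all 5 scalings. After correction ATXN2L differed most, at 0.86 with gene length and 0.81 with canonical transcript length, ahead of G3BP2 at 0.73 and 0.74. The direction of G3BP1 turned to -0.02 with the length of the canonical transcript, and that of PABPC1 to -0.06 with gene length.

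Ratios of counts within a library need no scaling by library size, but they are not corrected for GC content or length. G3BP1 and G3BP2 had a count ratio of 1.01 and 0.987 in the control libraries, 0.931 and 0.990 in ZM11-kd1, and 0.614 and 0.645 in ZM11-kd2. Only ZM11-kd2 lay clear of the controls by far more than the SD within groups of 0.05 on the log2 scale, with a log2 difference of -0.66. CAPRIN1 to the sum of G3BP1 and G3BP2 was 0.462 to 0.463 in the controls, 0.743 to 0.758 in ZM11-kd1 and 0.486 to 0.493 in ZM11-kd2. The log2 difference of this ratio was 0.70 in ZM11-kd1 and 0.08 in ZM11-kd2, which became 0.46 and -0.12 after the GC-length correction.

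The partners of the G3BP nodes did not shift alike. USP10 to the G3BP sum was 0.163 to 0.169 in the controls, 0.226 to 0.231 in ZM11-kd1 and 0.152 to 0.160 in ZM11-kd2, so that it was higher in ZM11-kd1 (log2 difference 0.46) and lower in ZM11-kd2 (-0.09), which became -0.11 and -0.40 with the correction. UBAP2L to the G3BP sum was 0.522 to 0.525, 0.397 to 0.412 and 0.303 to 0.348, lower in all 4 knockdown libraries, with log2 differences of -0.37 and -0.69 that became -0.83 and -0.89 with the correction. CAPRIN1 to USP10, the pair that competes for G3BP, was 2.74 to 2.84 in the controls and 3.09 to 3.35 in the knockdown libraries. All 4 knockdown libraries were above both controls for this pair, with a mean log2 difference of 0.20 beside an SD within groups of 0.04.

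TIA1 to TIAL1 was 1.04 to 1.06 in the controls, 0.985 to 1.09 in ZM11-kd1 and 0.904 to 0.974 in ZM11-kd2. The ZM11-kd1 values spanned those of the controls. ATXN2 to ATXN2L showed the largest mean shift of the 7 ratios before correction, from 0.543 and 0.592 in the controls to 0.307 and 0.316 in ZM11-kd1 and 0.228 and 0.255 in ZM11-kd2, with a mean log2 difference of -1.05. The log2 difference of this ratio was -0.87 in ZM11-kd1 and -1.23 in ZM11-kd2, and after the GC-length correction -0.14 and -0.94, so that little of the shift in ZM11-kd1 remained and UBAP2L to the G3BP sum had the largest mean shift (-0.86). In a two-sided exact permutation test of 4 knockdown against 2 control libraries the smallest possible p is 0.133, so that no ratio could pass. That value was reached by CAPRIN1 to the G3BP sum, UBAP2L to the G3BP sum, CAPRIN1 to USP10, and ATXN2 to ATXN2L (Benjamini-Hochberg adjusted exact permutation p = 0.233 over the 7 ratios). The exact permutation p was 0.267 for G3BP1 to G3BP2, 0.40 for TIA1 to TIAL1 and 0.80 for USP10 to the G3BP sum.

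**Figure D4:**
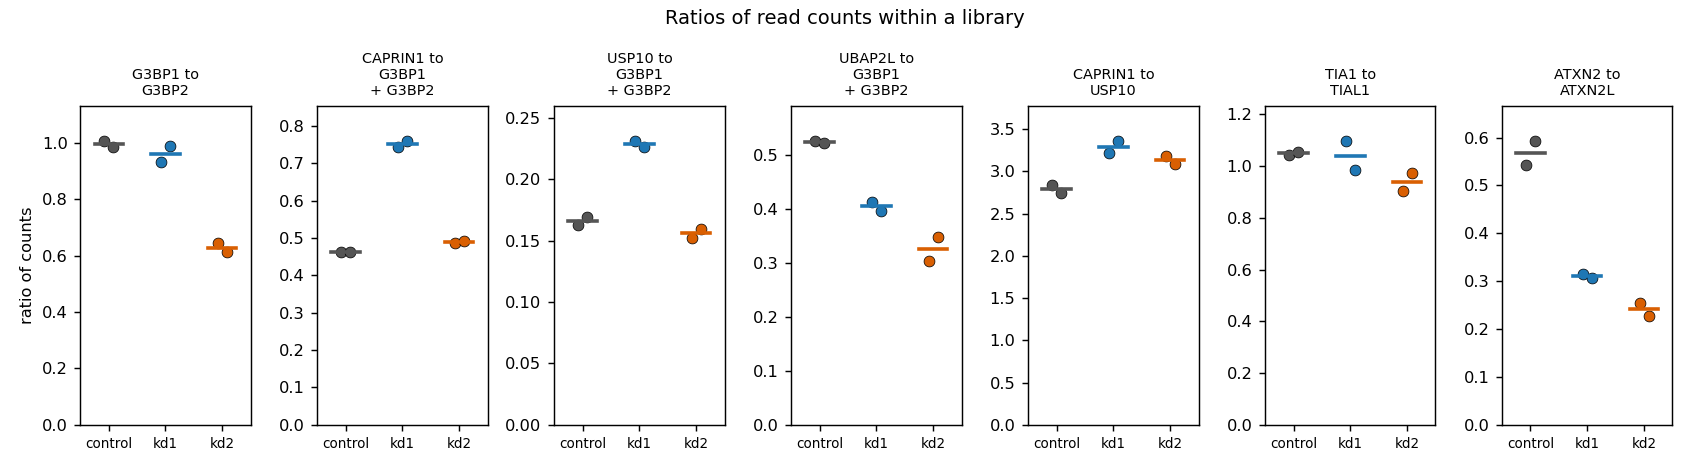
Ratio of read counts of the named genes within each library, with 1 point per library, a line at the mean of a group and y axes that start at 0. G3BP1 to G3BP2 is near 1 in the control libraries and 0.614 to 0.645 in ZM11-kd2, while ATXN2 to ATXN2L is lower in all 4 knockdown libraries than in both controls, and CAPRIN1 and USP10 relative to the G3BP sum stand highest in ZM11-kd1 before the GC-length correction.

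Levels between genes were compared per length, as TPM, which counts transcripts relative to all transcripts, over the merged exons of each gene. In control cells the order was PABPC1 (470.3 ± 4.3 TPM, SD, n = 2), UBAP2L (197 ± 2.8), TIA1 (144 ± 1.0), CAPRIN1 (144 ± 1.2), TIAL1 (123 ± 1.9), ATXN2L (109 ± 3.7), G3BP2 (103 ± 0.31), USP10 (92.4 ± 1.7), G3BP1 (70.4 ± 1.2) and ATXN2 (24.4 ± 0.65). The ranges of TIA1 and CAPRIN1 overlapped, and those of other neighbours did not. With the length of the canonical transcript, an alternative chosen after the data had been seen, only G3BP2, TIA1 and ATXN2L changed rank in control cells. G3BP2 then came after PABPC1 and UBAP2L at 174 ± 1.0 TPM, while G3BP1 was at 73.4 ± 1.4. PABPC1 and ATXN2 stayed highest and lowest in both knockdowns by either length. Behind PABPC1 over merged exons came CAPRIN1 in ZM11-kd1 (117 ± 3.0 TPM) and ATXN2L in ZM11-kd2 (189.6 ± 33.1), whose range overlapped that of CAPRIN1 there (176 ± 12.3). The level of G3BP2 relative to G3BP1 thus rested on which exons were counted as its length.

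The genes with the pattern most like each G3BP node were found by the root mean square difference of centred log2 CPM over the 6 libraries, among 12489 genes. For G3BP1 they were PAWR (0.025), TPM3 (0.027) and RPA1 (0.028), and for G3BP2 they were ERGIC2 (0.027), MON1B (0.027) and MIGA1 (0.032). G3BP1 and G3BP2 were 0.30 apart on this measure. Of the other core genes, ATXN2 (0.14) was nearest to G3BP1 and ATXN2L (0.32), after G3BP1, to G3BP2.

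Of 7 paralogs, 5 were called in ZM11-kd1 (2 higher, 3 lower) and 3 in ZM11-kd2 (0 higher, 3 lower), beside 78.0% and 73.4% of all genes. The split was 0 and 5 in ZM11-kd1 and 0 and 4 in ZM11-kd2 with library totals alone, and 4 and 2, and 2 and 3, with the GC-length correction. PABPC1L (231.1 and 226.9 CPM in control cells) was lower in both knockdowns, with log2 fold changes of -1.41 ± 0.05 and -1.79 ± 0.05 in ZM11-kd1 and ZM11-kd2. PABPN1, the nuclear poly(A)-binding protein, was also lower, at -0.63 ± 0.07 and -0.66 ± 0.07. CAPRIN2 was at 0.08 ± 0.08 (edgeR adjusted p = 0.343) and -0.63 ± 0.08, so that CAPRIN2 fell in ZM11-kd2, where CAPRIN1 rose. UBAP2 was at -0.36 ± 0.07 (adjusted p = 0.000200) and 0.08 ± 0.07 (adjusted p = 0.284), PABPC4 at 0.20 ± 0.06 (adjusted p = 0.00596) and -0.11 ± 0.06 (adjusted p = 0.101), and the direction of both in either knockdown turned under at least 1 other scaling. PABPC5 was at 0.85 ± 0.24 (adjusted p = 0.00518) and -0.43 ± 0.27 (adjusted p = 0.159) at a level of 1.15 to 3.62 CPM, and PABPC3, at 0.13 to 0.55 CPM, was called in neither.

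Of 39 genes listed for other RNA-binding proteins of granules, 38 were tested. Among these, 31 were called in ZM11-kd1 (12 higher, 19 lower) and 35 in ZM11-kd2 (20 higher, 15 lower), with median log2 fold changes of -0.24 and 0.19, beside 78.0% and 73.4% of all genes called. The split was 5 higher and 26 lower in ZM11-kd1 with library totals alone, and 18 and 17 with the GC-length correction. In ZM11-kd2 it was 15 and 16, and 22 and 10. All genes split 27.8% to 51.0% and 38.8% to 38.0% in ZM11-kd1, and 30.1% to 43.7% and 38.2% to 35.7% in ZM11-kd2, on the same scalings, which are the shares to read the splits of the other lists against. ZFP36, which binds AU-rich elements and speeds mRNA decay, had 18.3 and 19.9 CPM in control cells, 81.2 and 81.3 in ZM11-kd1 and 52.2 and 48.5 in ZM11-kd2, a rise of 2.09 ± 0.07 and 1.40 ± 0.07 on the log2 scale, with 1.26 in ZM11-kd1 at the weakest of the 5 scalings. IGF2BP3, which stabilizes bound mRNAs, fell from 34.3 and 35.2 CPM to 2.35 and 1.69 in ZM11-kd1 and to 8.23 and 12.5 in ZM11-kd2. CPEB4, a cytoplasmic polyadenylation factor, fell by 3.02 ± 0.06 in ZM11-kd1 and by 1.10 ± 0.05 in ZM11-kd2.

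Of 8 hnRNP A, FET and TDP-43 genes with prion-like domains, 8 were called in ZM11-kd1 (3 higher, 5 lower) and 5 in ZM11-kd2 (2 higher, 3 lower), beside 78.0% and 73.4% of all genes called, with medians of -0.25 and -0.09, and the split in ZM11-kd1 was 6 and 2 after the GC-length correction and 1 and 5 with library totals alone. HNRNPA1, the granule protein the study centred on, had 1620 and 1658 CPM in control cells, 718 and 737 in ZM11-kd1, and 887 and 815 in ZM11-kd2. HNRNPA1 fell by 1.17 ± 0.05 and 0.94 ± 0.05 on the log2 scale and stayed below 0 under the 5 scalings. EWSR1 fell by 0.83 ± 0.05 and 0.90 ± 0.05, while HNRNPA0 rose by 0.71 ± 0.05 and 0.59 ± 0.05, and TARDBP, which encodes TDP-43, by 0.36 ± 0.05 and 0.51 ± 0.05. Over the 5 scalings the ZM11-kd1 values ran from -1.53 to -0.78 for HNRNPA1, -1.19 to -0.25 for EWSR1, 0.36 to 1.51 for HNRNPA0 and 0.0088 to 0.77 for TARDBP.

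The 14 genes of eIF2 signalling, the kinases, phosphatase subunits and exchange factor that set translation initiation under stress, gave 12 called in ZM11-kd1 (8 higher, 4 lower) and 13 in ZM11-kd2 (10 higher, 3 lower). Of all genes, 78.0% were called and 38.2% were higher in ZM11-kd1, and 73.4% and 36.5% in ZM11-kd2. The list had medians of 0.47 and 0.41, and with library totals alone the split was 6 and 6 in ZM11-kd1. PPP1R15A (GADD34), which directs dephosphorylation of eIF2α, had 139.7 and 144.6 CPM in control cells, 415 and 426 in ZM11-kd1 and 288 and 269 in ZM11-kd2, a rise of 1.56 ± 0.05 and 0.97 ± 0.05. EIF2B2, a subunit of the exchange factor eIF2B, rose by 1.37 ± 0.08 and 1.20 ± 0.08. The kinase gene EIF2AK4 (GCN2) fell by 1.39 ± 0.07 and 0.26 ± 0.06, with 0.04 in ZM11-kd2 after one of the GC corrections, and EIF2AK2 (PKR) by 0.49 ± 0.07 and 1.04 ± 0.07, with up to 0.42 in ZM11-kd1 after correction. At the weakest of the 5 scalings EIF2AK4 was -0.76 in ZM11-kd1 and EIF2AK2 was -0.68 in ZM11-kd2.

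Processing bodies, which hold decapping and decay factors and dock on stress granules, gave 11 of 13 genes called in ZM11-kd1 (4 higher, 7 lower) and 10 in ZM11-kd2 (7 higher, 3 lower), beside 78.0% and 73.4% of all genes called, with medians of -0.47 and 0.17. With library totals alone the split was 2 and 9 in ZM11-kd1 and 5 and 6 in ZM11-kd2. EDC3, a decapping activator, rose by 0.76 ± 0.06 and 1.04 ± 0.06 and LSM1 by 0.90 ± 0.10 and 0.99 ± 0.09, with as little as 0.41 and 0.25 in ZM11-kd1 at the weakest of the 5 scalings. CNOT1, the scaffold of the CCR4-NOT deadenylase, had 198 and 182 CPM in control cells, 34.9 and 31.8 in ZM11-kd1 and 107.7 and 148.8 in ZM11-kd2. The decapping enzyme gene DCP2 fell by 0.84 ± 0.07 and 0.66 ± 0.06, with up to 0.10 in ZM11-kd1 after correction and -0.31 in ZM11-kd2 at the weakest scaling.

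Of 15 genes listed for granule clearance, 14 were tested, and 12 were called in ZM11-kd1 (9 higher, 3 lower) and 13 in ZM11-kd2 (9 higher, 4 lower), beside 78.0% and 73.4% of all genes called and 38.2% and 36.5% higher. The medians were 0.59 and 0.62 beside -0.03 for all genes, and with library totals alone the split in ZM11-kd1 was 7 and 5. The small heat shock protein genes had the largest rises of this list. HSPB1 had 110.2 and 103.5 CPM in control cells, 1665 and 1801 in ZM11-kd1 and 398 and 329 in ZM11-kd2, and HSPB8, the partner of BAG3 in granule quality control, had 18.0 and 19.0, then 163 and 160.3, then 125.0 and 133.7. ULK1 and ULK2, kinases of autophagy that phosphorylate the unfoldase VCP, had log2 fold changes of -0.57 ± 0.06 and -1.06 ± 0.09 in ZM11-kd1 and of -0.96 ± 0.06 and -1.84 ± 0.09 in ZM11-kd2, with ranges over the 5 scalings in ZM11-kd1 of -0.93 to -0.57 for ULK1 and -1.42 to -0.35 for ULK2.

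**Figure D5:**
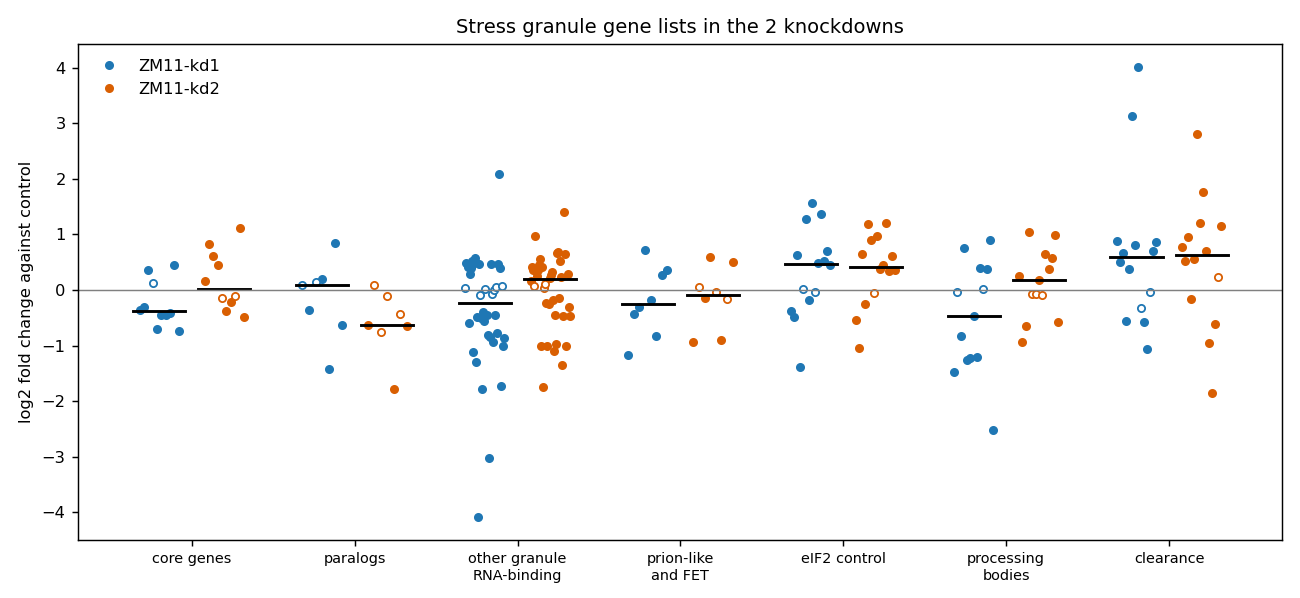
Log2 fold change against control (edgeR, TMM) of the tested genes of each list in ZM11-kd1 (blue) and ZM11-kd2 (orange), with filled points for an adjusted p under 0.05 and black lines at list medians. The medians of the core genes were -0.39 and 0.02, and those of the eIF2 and clearance lists were above 0 in both knockdowns, at 0.41 to 0.62, under TMM, while with library totals alone the median of the core genes in ZM11-kd2 was -0.15 and after the GC-length correction that in ZM11-kd1 was 0.28.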

How the data were processed

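RNA-seq libraries of 22Rv1 cells (2 per group) were grouped by their labels. The authors deposited counts of reads for each gene symbol as a raw table, without normalization. According to the submitters' processing notes and the methods, reads were checked with FastQC 0.11.9, aligned to hg38 with STAR 2.7.9a and counted with HTSeq 0.13.5, and the use of strand and of reads with several matches is not given in the sources used here. Reads of a gene and its antisense partner could thus not be told apart. The methods name poly(A) isolation or rRNA removal without saying which was used. No column was left out.

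The counts were fitted with edgeR 4.0.16 in R 4.3.3 (filterByExpr, TMM, quasi-likelihood test without robust estimation), in 1 fit of all 6 libraries with 3 residual degrees of freedom. P-values were adjusted over 16510 genes by the Benjamini-Hochberg method, with a threshold of 0.05. The SE was taken as |log2 fold change|/√F. Total counts of 26844128 to 38193748 set the precision of low counts. Replicate pairs differed by more than counting noise (mean chi-square per gene 2.37, 3.97 and 10.7 in control, ZM11-kd1 and ZM11-kd2) and were counted separately. Ratios used a pseudocount of 0.5. Levels per length used GENCODE 44, where 32852 of 35322 symbols matched by name. Corrections for GC content and length used lowess trends with a span of 0.3, and 96.6% of tested genes had both values. The 5 scalings are TMM, DESeq2 size factors, library totals alone, and 2 corrections for GC content with gene length or canonical transcript length. Simulated counts were used to test the functions.

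All core genes, ZMYND11, HNRNPA1 and measured paralogs are named. Each other list gives its top 2 risers and top 2 fallers by mean log2 fold change over the knockdowns. These had to be called in one direction in both, to average 1 log2 CPM or more, and to have every knockdown library beyond both control libraries in that direction. Of the genes so selected, 1 is not reported here. The members and lists were chosen with earlier results of these data known. Alternatives also included the DESeq2 1.42.0 Wald test, other filters, a replicate block, only the groups compared, a test against a 1.5-fold change, and the omission of single libraries. Figures were drawn with matplotlib 3.10.9 in Python 3.11.15.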

Additional observations from a re-analysis of the deposited data

Results flagged for a closer look

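The knockdowns differed from each other in 9 of the 10 core genes by the edgeR test of that difference. In ZM11-kd2 against ZM11-kd1 the log2 difference was 0.52 for G3BP1, 1.13 for G3BP2, 0.25 for CAPRIN1, 0.32 for USP10, 0.55 for UBAP2L, 0.22 for TIAL1, 0.30 for ATXN2, 0.67 for ATXN2L and 0.26 for PABPC1. Of all tested genes, 68.8% differed likewise. The directions of G3BP1, CAPRIN1, TIAL1 and PABPC1 turned under at least 1 correction for GC content and length.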

How the results depend on the processing

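For the core genes, requiring a fold change of at least 1.5 left 2 calls in ZM11-kd1, 2 in ZM11-kd2 and 1 between the knockdowns, beside 50.9%, 40.1% and 32.7% of all tested genes. Leaving out 1 library gave 9 to 10 calls in ZM11-kd1, 7 to 10 in ZM11-kd2 and 9 between the knockdowns. Whether replicate numbers pair the libraries is not given in the sources used here. Deviations of libraries with the same number had correlations of 0.01, -0.03 and -0.04, which cannot show how the libraries were prepared. The fit with a replicate block gave 9, 8 and 9 calls, as without it.

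The GC-length correction turned the log2 fold changes in ZM11-kd1 of G3BP1 (0.45), G3BP2 (0.39), TIA1 (0.025), TIAL1 (0.067) and ATXN2 (0.24), that of ATXN2 in ZM11-kd2 (0.30), and those between the knockdowns of CAPRIN1 (-0.13), TIA1 (-0.45), TIAL1 (-0.21) and PABPC1 (-0.064). With the canonical transcript length, chosen after seeing the data, G3BP1 (0.56), G3BP2 (0.13) and TIA1 (0.10) turned in ZM11-kd1, ATXN2 (0.0068) in ZM11-kd2, and G3BP1 (-0.018), CAPRIN1 (-0.18), TIA1 (-0.51) and TIAL1 (-0.21) between the knockdowns. Library totals alone turned USP10 in ZM11-kd1 (-0.23) and G3BP1 in ZM11-kd2 (-0.0057). The cause was not tested.

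In ZM11-kd2, paralogs called numbered 3 of 7, and 5 under either correction, and prion-like genes called 5 of 8, and 8 with library totals alone, beside 73.4% of all genes, 73.9% and 74.6% under the corrections and 73.8% with library totals. Under the GC-length correction the mean log2 differences of the ratios were -0.26 for G3BP1 to G3BP2, 0.17 for CAPRIN1, -0.26 for USP10 and -0.86 for UBAP2L to the G3BP sum, 0.43 for CAPRIN1 to USP10 and -0.54 for ATXN2 to ATXN2L. By knockdown it turned G3BP1 to G3BP2 (0.058) and USP10 to the G3BP sum (-0.11) in ZM11-kd1 and CAPRIN1 to the G3BP sum (-0.12) in ZM11-kd2. Leaving out 1 library gave -0.48 to -0.24 for G3BP1 to G3BP2, 0.28 to 0.50 for CAPRIN1, 0.090 to 0.29 for USP10 and -0.59 to -0.44 for UBAP2L to the G3BP sum, 0.18 to 0.23 for CAPRIN1 to USP10, -0.14 to -0.05 for TIA1 to TIAL1 and -1.12 to -0.96 for ATXN2 to ATXN2L. In ZM11-kd1, TIA1 to TIAL1 was -0.092 to 0.062 when 1 library was left out and turned to above 0 without the second ZM11-kd1 library. With 2 libraries per group and 3 residual degrees of freedom, the spread within a group is poorly known, and no value here bears on protein or granules.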
